A study of Mus musculus with 8 samples.

Results

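Atp2b2, 9130204K15Rik, Cntnap4 and Eya2 were among the genes with the largest differences when Kap1 was depleted in Hepa 1-6 cells, a mouse hepatoma cell line. Atp2b2 and 9130204K15Rik were almost without reads in control cells and carried 30 to 89 reads per sample after the knockdown (KD). Cntnap4 and Eya2 went the other way, from 17 to 22 reads per sample in control cells to 1 to 4. These are 4 of the 21915 genes in the deposited mRNA-seq count table. They were picked from the same 4 samples that are described here, among genes called with the replicate number as a block whose Kap1 KD samples both lay beyond both controls, so their own change is described and not tested.

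The mRNA-seq compared 2 control with 2 Kap1 KD samples of Hepa 1-6 cells, grown in DMEM with 10% FCS and collected 5 days after transduction. Kap1 KD cells received a short hairpin RNA (shRNA) against KAP1. The labels give the control as a control shRNA and the study's methods as the empty vector, and both groups were selected with puromycin, so all 4 samples went through transduction and selection. Only 1 title per group carries a number, which is 2, and the unnumbered sample is called replicate 1 here. Nothing says that replicates came from separate cultures, so the spread between them may be technical. Deposited counts ranged from 41566888 to 53605115 per sample. At this depth the 4 genes have few reads, and counting error is a large part of each value.

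KAP1, encoded by Trim28, is a co-repressor that KRAB zinc finger proteins bring to DNA, where it assembles enzymes that build H3K9me3-marked heterochromatin, above all on transposable elements. The 3 protein-coding genes are best known outside the liver. Atp2b2 encodes a plasma membrane calcium ATPase that pumps calcium out of neurons and of the hair cells of the inner ear. Cntnap4 encodes a neurexin-like adhesion protein of interneuron synapses, and Eya2 a transcriptional coactivator that is also a tyrosine phosphatase. 9130204K15Rik is annotated as a processed transcript, and its transcripts as long intergenic non-coding RNA.

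The targeted gene was measured first. Trim28 (ENSMUSG00000005566, chr7:13609501-13616384, plus strand) had 25400 and 28506 reads in the controls (replicates 1 and 2, in this order throughout) and 4512 and 3692 in the Kap1 KD samples. In CPM, the count scaled to library size and here also by TMM factors (normalized CPM), this was 515 ± 83.8 (SD, n = 2) against 92.4 ± 19.1 (SD, n = 2). The log2 fold change was -2.48 (SE 0.25, derived from the F statistic of its test), in the direction the labels give. Its edgeR quasi-likelihood test, with an adjusted p of 0.9999, did not pass, and that test called none of the 14142 genes tested in either direction (0% higher and 0% lower). At an unadjusted p under 0.05 it had 185 genes, 1.31% of those tested. DESeq2 called 2 genes higher and 1 lower.

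The markers of the labelled cell type were present in part. All 12 hepatocyte markers of a fixed list were in the table, among them Alb, encoding albumin, with 20626 to 88000 reads and Afp, encoding alpha-fetoprotein, with 20838 to 38829. Cyp7a1, the rate-limiting enzyme of bile acid synthesis, was listed at 0 in 3 of the 4 samples, and Ttr and Serpina1a, which encode secreted plasma proteins, had 0 to 11 reads. In the summed level of the list, the controls had 2509 and 2148 normalized CPM and the Kap1 KD samples 1763 and 1174. Markers of other cell types (fibroblast, endothelium, leukocyte, bile duct, stellate or muscle) summed to 8.55 and 9.47 normalized CPM in controls and 8.12 and 10.5 after KD. One library stood apart: Kap1 KD replicate 2 had 43.0 normalized CPM over the 49 loci named 7SK, and the other samples 1.91 to 2.42. Values without that library are given beside each gene.

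Atp2b2 (ENSMUSG00000030302) is a protein-coding gene at chr6:113695663-113992607 on the minus strand (build mm9, as all positions here). It had 2 and 1 reads in the controls and 30 and 89 in the Kap1 KD samples. In normalized CPM these were 0.0359 and 0.0202 against 0.704 and 1.90. Both KD samples lay above both controls, as the choice required, and they also differed from each other, replicate 2 being the higher. The means were 0.0280 ± 0.0111 and 1.30 ± 0.847 normalized CPM (SD, n = 2 each).

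The fitted log2 fold change of Atp2b2 was 5.40 (SE 0.82), and 4.52 without Kap1 KD replicate 2. With so few control reads, the ratio of the pooled counts is loosely bounded. KD over control was 46.7, with an exact 95% interval of 15.6 to 229.9 that covers counting error only. Within replicate number 1 the ratio was 19.6 (4.98 to 169), and within number 2 it was 94.4 (16.5 to 3770). Even after the KD the gene was a low one: per kb of exon its mean level moved from percentile 7.74 to percentile 34.7 of the genes in the table.

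9130204K15Rik (ENSMUSG00000086474) lies at chr11:79595481-79685896 on the minus strand, and its annotated transcripts hold no coding sequence. Its reads numbered 3 and 1 in controls and 50 and 53 after KD. The normalized CPM was 0.0539 and 0.0202 in control and 1.17 and 1.13 after KD. In contrast to Atp2b2, the KD samples were nearly equal. The means were 0.0370 ± 0.0238 and 1.15 ± 0.0289 normalized CPM (SD, n = 2 each). That both KD samples lay above both controls was a condition of the choice.

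For 9130204K15Rik the fitted log2 fold change was 4.84 (SE 0.56), and 4.88 without Kap1 KD replicate 2. It was 5.66 without control replicate 1 and 4.38 without control replicate 2. The pooled ratio of KD over control was 30.3 (exact 95% counting interval 11.5 to 113). It was 21.8 (7.04 to 109) within replicate number 1 and 56.2 (9.66 to 2262) within number 2. Per kb of exon, the level went from percentile 21.9 to 48.5, on the length of all annotated exons.

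Cntnap4 (ENSMUSG00000031772) is a protein-coding gene at chr8:115093943-115406617 on the plus strand. The controls had 17 and 19 reads, and the Kap1 KD samples 1 and 4. These were 0.305 and 0.383 against 0.0235 and 0.0855 normalized CPM. The controls were alike and both KD samples were below them, as the choice required. The KD samples had so few reads that the KD level itself is hardly measured. The means were 0.344 ± 0.0550 and 0.0545 ± 0.0439 normalized CPM (SD, n = 2 each).

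The log2 fold change of Cntnap4 was -2.57 (SE 0.68), and -3.73 without Kap1 KD replicate 2, the KD sample with more reads. Without Kap1 KD replicate 1 it was -1.97. Control over KD, from pooled counts, was 6.11 (exact 95% counting interval 2.39 to 19.9). It was 13.0 (2.04 to 543) within replicate number 1 and 4.48 (1.49 to 18.1) within number 2. The size of the difference therefore rests on which KD sample is used. Its sign was fixed by how the gene was chosen, and its size was selected in part.

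Eya2 (ENSMUSG00000017897) is a protein-coding gene at chr2:165480798-165597227 on the plus strand. It had 22 and 18 reads in the controls and 4 reads in each Kap1 KD sample. In normalized CPM this was 0.395 and 0.363 against 0.0939 and 0.0855. Eya2 was the most even of the 4 genes: samples of 1 group lay close together. That the groups lay apart was a condition of the choice. The means were 0.379 ± 0.0228 and 0.0897 ± 0.00594 normalized CPM (SD, n = 2 each).

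For Eya2 the log2 fold change was -2.05 (SE 0.48), and -1.98 without Kap1 KD replicate 2. Control over KD was 4.24 (exact 95% counting interval 1.96 to 10.5) from pooled counts. The ratio was 4.21 (1.43 to 16.8) within replicate number 1 and 4.24 (1.40 to 17.2) within number 2.

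**Figure D1:**
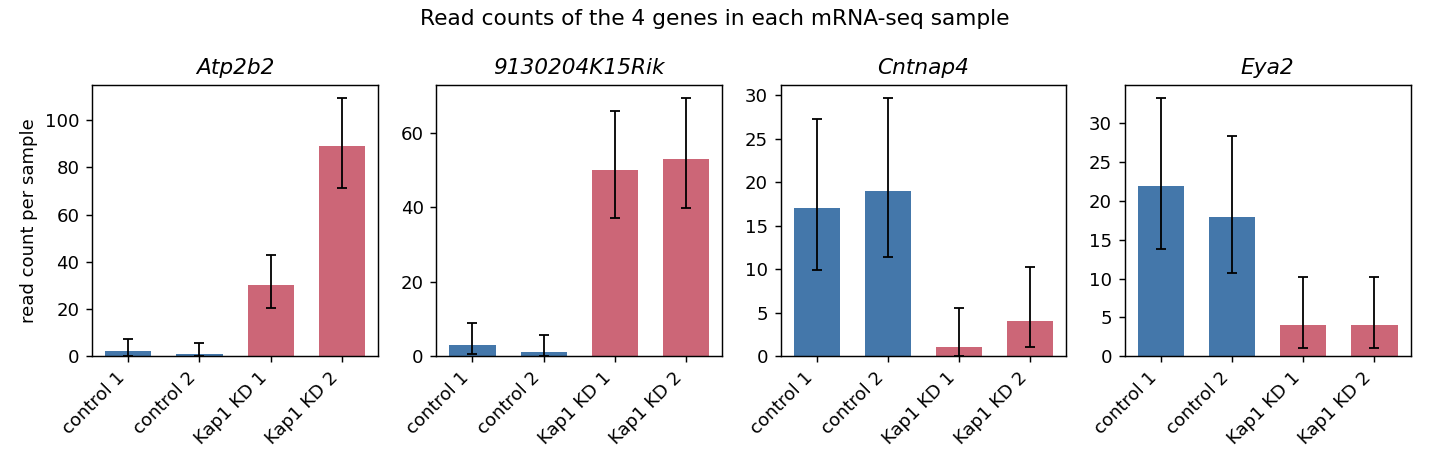
Read counts of Atp2b2, 9130204K15Rik, Cntnap4 and Eya2 in each sample, with control in blue and Kap1 KD in red; bars give the deposited count from 0 and lines its exact 95% counting interval. Atp2b2 and 9130204K15Rik had at most 3 reads in a control sample and at least 30 in a KD sample, and Cntnap4 and Eya2 at least 17 and at most 4.

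The values that chose the genes came from the fit with the replicate number as a block. There, 193 genes called higher had both KD samples above both controls. Atp2b2 (log2 fold change 5.34, SE 0.52) and 9130204K15Rik (4.84, SE 0.50) led them, and the next gene outside the choice was at 3.74 (SE 0.28). Among 224 such genes called lower, Cntnap4 (-2.59, SE 0.62) was first and Trim28 (-2.48, SE 0.06) second. Genes outside the choice held rank 3 (-2.28, SE 0.42) and rank 4 (-2.09, SE 0.25). Eya2 (-2.05, SE 0.54) was rank 5, with the next gene at -1.94 (SE 0.63). Of all tested genes, 9.69% had both KD samples above both controls and 10.6% had both below. The 2 genes that DESeq2 called higher without a block (0.00913% of the genes with an adjusted p) were Atp2b2 and 9130204K15Rik, and the 1 gene it called lower (0.00456%) was Trim28. With the block DESeq2 called 0.913% of genes higher and 1.07% lower. These shares use the contrast that chose the genes.

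Compared per length, the genes that rose and the genes that fell changed places between the conditions. This was largely set by the choice, which took genes nearly silent in control cells and genes strongly lower after KD. In control cells Eya2 was highest with 0.139 ± 0.00834 normalized CPM per kb of exon, then Cntnap4 with 0.0548 ± 0.00875, 9130204K15Rik with 0.0253 ± 0.0163 and Atp2b2 with 0.0026 ± 0.00103 (SD, n = 2 each). In Kap1 KD cells 9130204K15Rik was highest with 0.789 ± 0.0197 normalized CPM per kb, followed by Atp2b2 with 0.121 ± 0.0786, Eya2 with 0.0329 ± 0.00217 and Cntnap4 with 0.00868 ± 0.00698. No neighbours in either order overlapped in their 2 samples, though the counts behind the lowest genes are 1 to 4 reads. All these levels were under the median of the table, 0.985 normalized CPM per kb in each condition. With the longest transcript as the length in place of all exons, 9130204K15Rik stood at 1.33 normalized CPM per kb after KD, and the median on that length was not computed. In bulk RNA, more cells with a transcript and more transcript per cell cannot be told apart.

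The genes share long bodies. Cntnap4 spans 312.7 kb, Atp2b2 296.9 kb, Eya2 116.4 kb and 9130204K15Rik 90.4 kb, against a median of 13.8 kb over the 21806 annotated genes of the table. They stood at percentiles 98.2, 98.0, 92.2 and 89.1 of body length. Their exons did not share this: summed exon length was at percentile 97.5 for Atp2b2 (10.774 kb), 86.9 for Cntnap4 (6.281 kb), 51.9 for Eya2 (2.73 kb) and 29.8 for 9130204K15Rik (1.462 kb).

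The 250 bases before the annotated start of 3 of the genes are given below 5′ to 3′ on the strand of the gene, so that the windows can be compared for CG content. They were read from the mm9 genome, in lower case with each CG dinucleotide in capitals, and come from chr6:113992608-113992857 (minus strand), chr11:79685897-79686146 (minus) and chr2:165480548-165480797 (plus).
Atp2b2: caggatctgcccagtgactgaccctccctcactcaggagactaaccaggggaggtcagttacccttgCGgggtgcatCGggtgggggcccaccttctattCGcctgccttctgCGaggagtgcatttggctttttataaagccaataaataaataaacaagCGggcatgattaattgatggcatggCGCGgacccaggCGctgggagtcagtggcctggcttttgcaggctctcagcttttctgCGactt
9130204K15Rik: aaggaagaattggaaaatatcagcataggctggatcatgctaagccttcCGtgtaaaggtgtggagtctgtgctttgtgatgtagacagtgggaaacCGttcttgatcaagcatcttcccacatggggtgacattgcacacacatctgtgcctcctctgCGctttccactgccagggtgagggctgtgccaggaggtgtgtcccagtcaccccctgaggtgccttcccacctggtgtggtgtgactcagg
Eya2: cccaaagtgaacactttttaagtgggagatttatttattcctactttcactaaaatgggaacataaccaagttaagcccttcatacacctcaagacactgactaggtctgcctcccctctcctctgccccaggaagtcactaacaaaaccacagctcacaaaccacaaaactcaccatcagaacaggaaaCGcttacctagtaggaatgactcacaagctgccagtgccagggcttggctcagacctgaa

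None of these windows was rich in CG. Atp2b2 had 9 CG dinucleotides, which is also the median of 21805 such windows, 9130204K15Rik had 3 and Eya2 1. At most as many were found in 51.2%, 26.8% and 12.2% of all windows, respectively. The letters TATAAA, searched on both strands, were found in the Atp2b2 window, 116 bases before the start, and not in the windows of 9130204K15Rik and Eya2; 10.6% of all windows hold them.

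**Figure D2:**
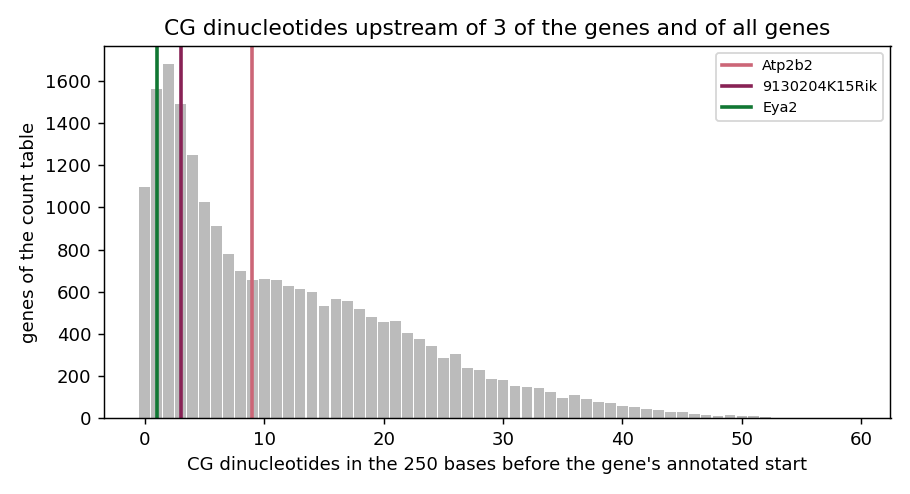
Number of CG dinucleotides in the 250 bases before the annotated start, with grey bars giving how many genes of the table have each number and coloured lines marking Atp2b2, 9130204K15Rik and Eya2. Atp2b2 lies at the median of 9, and 9130204K15Rik (3) and Eya2 (1) lie under it.

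Part of the 9130204K15Rik transcript is repeated in the genome, which bears on how its reads could be placed. Stretches of at least 50 bases with at least 90% identity elsewhere covered 297 of its 1462 exon bases (20.3%), in 2 of its 8 exon blocks. The block with most matches has 118 bases and lies at chr11:79596272-79596389 on the minus strand. It is shown 5′ to 3′ because its copies are the most numerous, with capitals for bases found elsewhere, which here are all of them.
9130204K15Rik exon block: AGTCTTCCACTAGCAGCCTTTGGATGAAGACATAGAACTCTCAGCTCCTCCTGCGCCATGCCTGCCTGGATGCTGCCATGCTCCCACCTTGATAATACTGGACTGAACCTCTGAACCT
This block matched 3044 other places, and each of its bases was covered by 2538 to 3039 of them. The other block had 179 bases covered, by 18 matches. No match was identical: the highest identity was 98.4% for the 118-base block and 96.4% for the other. The authors kept 1 alignment per read. Whether reads from either block were placed at another copy, or the reverse, was not tested. Where in the gene the reads lie cannot be seen in a table of counts per gene, and the part of these blocks in the count was not tested.

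The exons of the other genes were almost free of such stretches. They covered 1.37% of the exon bases of Atp2b2, all in its 3180-base end block, 1.31% of Cntnap4 in 1 of 26 blocks and 1.83% of Eya2 in 1 of 17 blocks. In all, 2 annotated antisense genes overlap Atp2b2: Gm15082 had 0 and 1 reads in controls and 0 in each KD sample, and Gm15083 had 1 and 0 reads in controls and 0 and 2 after KD. Gm11460, antisense within Eya2, had 0 reads in each control and 0 and 2 after KD. The Atp2b2 upstream window lies within Gm15083. The strand setting of the counting is not given in the sources used here, but these partners had at most 2 reads in any sample.

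The genomic neighbours of the 4 genes were examined next, as the 5 nearest genes of the table on each side together with overlapping genes. Of these 43 neighbours, 25 were tested and none was called, as for all tested genes (0%). None had an unadjusted p under 0.05 in the edgeR test, against 1.31% of all tested genes. DESeq2 called 0, against 0.00913% of all genes higher and 0.00456% lower. Shares this small make these counts uninformative. With the block none was called, where 2.06% of all tested genes were called higher and 2.40% lower. In that blocked edgeR test, Suz12 (log2 fold change -0.41), Tatdn2 (0.28) and Vgll4 (-0.27) had an adjusted p under 0.05. So did Gm6793 (-0.24), Kars (0.15) and Nf1 (-0.21), all under the 1.5-fold cut. Among all tested genes, 4627 had an unadjusted p under 0.05 there. The log2 fold changes of the 25 tested neighbours, here and below without the block, ran from -0.57 to 0.64. Their median was -0.01, and the median of all tested genes was -0.02.

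Sec13, which encodes a protein of COPII vesicle coats and nuclear pores, lies 4.926 kb from Atp2b2 on the same strand. It had 14748 and 16154 reads in controls and 12081 and 15004 after KD (log2 fold change 0.03, SE 0.19). Its difference was smaller than its SE, beside a gene that went from 1 or 2 reads to 30 or more. Other tested neighbours of Atp2b2 were Tatdn2 (0.28, SE 0.16), Irak2, a kinase of Toll-like receptor signalling (-0.16, SE 0.19), Hrh1, a histamine receptor (0.64, SE 0.45), Atg7, an autophagy enzyme (-0.01, SE 0.39), Vgll4 (-0.28, SE 0.23) and 1500001M20Rik (-0.03, SE 0.18), each given with its log2 fold change.

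Beside 9130204K15Rik, tested genes were Utp6, a ribosome assembly factor (0.02, SE 0.22), Suz12, a Polycomb subunit (-0.42, SE 0.62), Crlf3 (0.06, SE 0.21), Atad5 (-0.20, SE 0.59), Rab11fip4 (-0.39, SE 0.63), Gm11202 (0.10, SE 0.45) and Nf1, the neurofibromin gene (-0.20, SE 0.33). The nearest of them, Utp6, lies 59.9 kb away on the same strand. Suz12 had 4348 and 1515 reads in controls and 2453 and 1100 after KD, so its samples differed more by replicate number than by condition.

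Cntnap4 stands in a stretch with few genes of the table. Its nearest neighbours were AC127366.1, annotated as a microRNA, at 351.8 kb on the left with 1 to 6 reads per sample, and Mon1b (0.09, SE 0.23) at 753.2 kb on the right. The other tested neighbours were Terf2ip, a telomere protein (-0.02, SE 0.21), Gm6793 (-0.27, SE 0.42), Kars, the lysyl-tRNA synthetase (0.15, SE 0.20), Adat1, a tRNA deaminase (0.01, SE 0.21) and Syce1l (-0.21, SE 0.35). Beside Eya2, 12.4 kb away, lies Zmynd8, a chromatin reader (0.01, SE 0.17). Further off were 2810408M09Rik (0.11, SE 0.21), 4833422F24Rik (-0.57, SE 0.58), Zfp334 (-0.05, SE 0.19) and BC046401 (-0.01, SE 0.37).

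**Figure D3:**
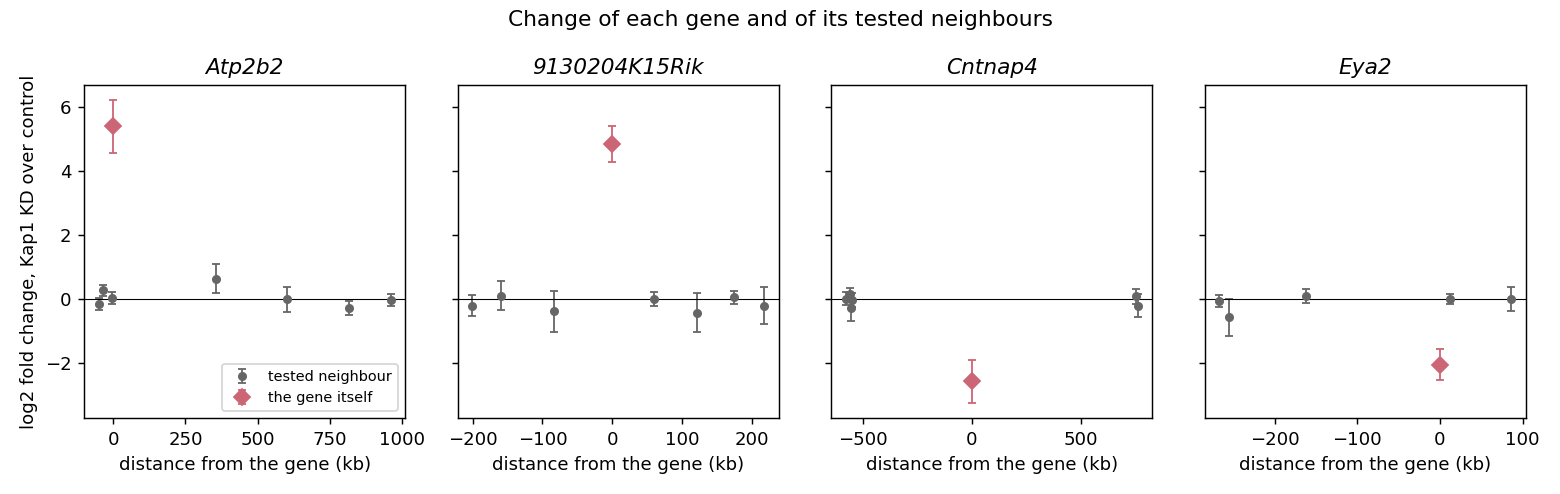
Log2 fold change of Kap1 KD over control (vertical axis, lines give the SE) for each gene (red diamond at 0 kb) and its tested neighbours (grey), by distance in kb. The 25 neighbours lie between -0.57 and 0.64, while the 4 genes lie at 5.40, 4.84, -2.57 and -2.05.

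Atp2b2 belongs to the calcium pumps, P-type ATPases that clear calcium from the cytosol across the plasma membrane (Atp2b genes), into the endoplasmic reticulum (Atp2a genes) or into the Golgi (Atp2c genes). Of 8 other pump genes, all in the table, 5 were tested, with a median log2 fold change of -0.05 beside -0.02 for all tested genes. None was called, here or in the lists that follow, and as that test called 0% of all genes in either direction, the missing calls say nothing about these lists. Atp2b1, the plasma membrane pump found in most cells, had 3645 and 1626 reads in controls and 2543 and 1640 after KD. This was 49.1 ± 23.1 against 47.4 ± 17.4 normalized CPM (SD, n = 2 each; log2 fold change -0.05, SE 0.44), a difference far smaller than the spread. Atp2b3 had 0 and 1 reads in controls and 1 and 2 after KD, and Atp2b4 had 2 and 6 against 2 and 1. In control cells, Atp2b2, Atp2b3 and Atp2b4 thus had at most 6 reads in a sample, and after KD Atp2b2 alone of these had more than 2.

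Pumps of inner membranes were read next. Atp2a2, the common pump of the endoplasmic reticulum, stood at 533 ± 39.7 normalized CPM in control and 506 ± 43.6 in KD cells (SD, n = 2 each; log2 fold change -0.08, SE 0.17). Atp2c1 had 28.4 ± 7.31 and 29.2 ± 8.82 normalized CPM (0.04, SE 0.32). Atp2a1, a muscle pump, had 48 and 84 reads in controls and 40 and 88 after KD (0.15, SE 0.54). Atp2c2 had 26 and 25 reads in controls and 14 and 12 after KD (-0.73, SE 0.41), so its groups did not overlap but its edgeR test, at an unadjusted p of 0.137, did not pass. Atp2a3 had 1 to 3 reads per sample and was not tested.

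Of 28 other genes of calcium handling (channels, exchangers, sensors and pump partners), 24 were in the table and 17 were tested, with a median log2 fold change of -0.01. They ran from Ryr1, the calcium release channel of skeletal muscle (-0.26, SE 0.45), to Slc24a3, a sodium/potassium/calcium exchanger (0.56, SE 0.80).

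Cntnap4 has relatives in the contactin-associated and neurexin family, adhesion proteins of axons and synapses. Of 6 other family genes listed and in the table, 4 were tested, with 0 called as among all genes (0%) and a median log2 fold change of 0.19. Cntnap1, a protein of the paranodal junction of myelinated axons, had 332 and 270 reads in controls and 205 and 208 after KD (-0.30, SE 0.25). Cntnap2, the partner of potassium channels beside the node, had 20 and 19 reads in controls and 31 and 24 after KD (0.74, SE 0.41). Per kb of exon, Cntnap2 stood at 0.0517 normalized CPM in control cells, beside 0.0548 for Cntnap4, and at 0.0864 after KD, beside 0.00868. The test of Cntnap2 did not pass (edgeR, unadjusted p = 0.133), and the difference between the genes was not tested.

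Cntnap5a had 199 and 178 reads in controls and 168 and 225 after KD (0.29, SE 0.27). Nrxn2, a presynaptic neurexin, had 21 and 23 against 15 and 25 reads (0.08, SE 0.43). Nrxn3 and Cntnap5c had 0 to 2 reads in every sample. Contactins and neuroligins, the partners of these proteins, were nearly without reads: of 8 in the table, 1 was tested. That gene, Nlgn2, a postsynaptic partner of neurexins, had 907 and 972 reads in controls and 488 and 725 after KD (-0.41, SE 0.26). Both KD samples of Nlgn2 were below both controls in normalized CPM, as in 10.6% of all tested genes. With the block its log2 fold change was -0.42 (SE 0.10, adjusted p 0.00048 in the blocked edgeR test), under the 1.5-fold cut.

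Eya2 belongs to a network in which EYA coactivators bind homeodomain proteins of the Six4 and Six5 family, with DACH proteins as further partners. Of 7 other genes of the network in the table, 3 were tested, with 0 called as among all genes (0%) and a median log2 fold change of 0.10. Eya3, the EYA gene with the highest level per kb, had 45.3 ± 0.177 normalized CPM in control and 48.4 ± 0.718 in KD cells (SD, n = 2 each; 0.10, SE 0.18). Eya4 had 19 and 22 reads in controls and 13 and 7 after KD (-0.79, SE 0.53). Its test did not pass (edgeR, unadjusted p = 0.201). Eya1 had 0 and 1 reads in controls and 2 and 4 after KD.

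Six5 was tested, with 759 and 752 reads in controls and 576 and 932 after KD (0.22, SE 0.27). Six4 had 1 read in all, in Kap1 KD replicate 2. Dach1 had 2 and 2 reads in controls and 0 and 5 after KD, and Dach2 had 5 and 0 against 4 and 0. Over the 3 families, 12 relatives were tested. Of these, 3 had both KD samples above both controls and 3 had both below, where 9.69% and 10.6% of all tested genes did; none was called.

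**Figure D4:**
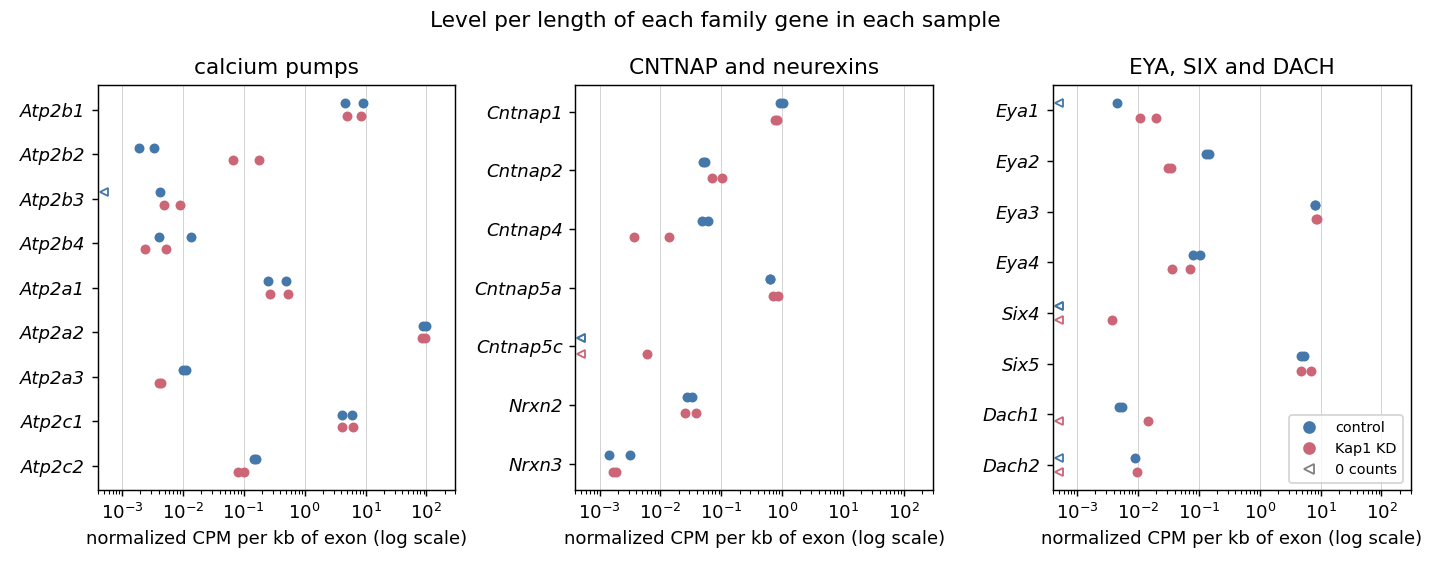
Level of each family gene in each sample, in normalized CPM per kb of exon on a log axis, with control in blue, Kap1 KD in red and open triangles at the left edge for 0 counts. Atp2b2 moves from a mean of 0.0026 to 0.121, and Cntnap4 and Eya2 move down, while of the 12 tested relatives 6 have overlapping groups, 3 (Cntnap2, Cntnap5a and Eya3) have both KD points above and 3 (Atp2c2, Cntnap1 and Eya4) both below.

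As Atp2b2 and Cntnap4 are known from neurons, general neuronal markers were read beside them. Of 15, 7 were in the table and 1 was tested. That gene, Dlg4, a scaffold of synapses, had 1921 and 2115 reads in controls and 1539 and 2467 after KD (0.20, SE 0.27). The other 6 had 0 to 9 reads in every sample. Snap25, Map2, Rbfox3, Slc32a1, Nefl, Nefm, Stmn2 and Elavl4 were not in the table, which lists only genes with a read in at least 1 sample. In the summed level of the neuronal list the controls had 34.7 and 42.8 normalized CPM and the KD samples 36.3 and 53.1, nearly all of it from Dlg4 (34.5 and 42.6, and 36.1 and 52.7).

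Hepatocyte markers had a median log2 fold change of -0.46 over 9 tested genes, of which 2 had an unadjusted p under 0.05 in the edgeR test, against 1.31% of all tested genes. They ran from Apoa1, an apolipoprotein of HDL (18 and 21 reads in controls, 5 and 8 after KD; -1.35, SE 0.49), to Apoa2, another (84 and 96 against 72 and 102; 0.17, SE 0.33). With the replicate block, 3 of the 9 (Alb, Apob and Apoa1) were called lower, where 2.40% of all tested genes were. Of the markers of other cell types, 6 were tested (median log2 fold change -0.05), from Des, a muscle and stellate cell filament (-0.53, SE 0.37), to Col1a1, a fibroblast collagen (0.71, SE 0.44). Their part in the values of Atp2b2, 9130204K15Rik, Cntnap4 and Eya2 was not tested.

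The genes whose pattern over the 4 samples was most like that of each gene were found by the root mean square (RMS) difference of centred log2(CPM + 0.5) values. They were found on these samples, and with 4 points many genes can look alike. Closest to Atp2b2 were Sox13, a transcription factor (RMS 0.196), Mmp9, a secreted gelatinase (0.206), and Gap43, a growth cone protein (0.215). Gap43 had 13 and 18 reads in controls and 40 and 103 after KD, so that, as in Atp2b2, Kap1 KD replicate 2 was the highest sample. Closest to 9130204K15Rik were Chst13, a chondroitin sulfotransferase (0.234), 1110002J07Rik (0.242) and BC051019 (0.284). BC051019 had 17 and 15 reads in controls and 48 and 58 after KD.

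Closest to Cntnap4 were Sphk1, a sphingosine kinase (RMS 0.010), Rbm20, a splicing factor (0.036), and Rcan3, a calcineurin regulator (0.044), and closest to Eya2 were Nfic, a nuclear factor I protein (0.018), Rwdd2a (0.029) and Xkr8 (0.030), which acts in phospholipid scrambling. With 0.1 CPM added in place of 0.5, Gap43 and BC051019 stayed among the closest 3 of their genes and none of the others did. The added 0.5 CPM exceeds the levels of Cntnap4 and Eya2 and flattens them, so genes of quite unlike level can come out as alike: Nfic had 5662 and 4794 reads in controls and 2905 and 3049 after KD, and Rbm20 had 22 and 25 against 5 and 7.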

How the data were processed

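Poly(A) RNA-seq of Hepa 1-6 cells (2 control, 2 Kap1 KD) was analysed with the groups and numbers of the labels. The authors aligned 100-base single reads to mm9 with TopHat2 2.0.11, keeping 1 alignment per read, counted with HTSeq 0.6.1 and deposited whole-number counts per Ensembl gene. The small RNA tables hold none of the 4 genes and were not used.

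Counts were tested with edgeR 4.0.16 in R 4.3.3 (filterByExpr, TMM scaling, quasi-likelihood F test, prior count 0.125, no replicate block). A call needed a Benjamini-Hochberg adjusted p under 0.05 over all 14142 tested genes and a 1.5-fold change. DESeq2 1.42.0, other scaling, filter, prior and pseudocounts, the block and each sample left out were the alternatives. Reads lack molecular identifiers, so intervals from counts cover counting error only.

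Symbols and positions came from an mm9 annotation that matched 21806 identifiers. Exon blocks were searched against the mm9 genome with BLAST+ 2.17.0. The members and lists were chosen with earlier results of these data known. Named genes were the 4 genes, Trim28, family and neighbouring genes that were tested, the extremes of other lists and the 3 most alike genes; untested genes and Alb, Afp and Apob were named after their values were seen. Some genes and 1 upstream window are not reported here.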

Additional observations from a re-analysis of the deposited data

How the results depend on the processing

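The 2 replicates per group and the few reads of the 4 genes limit every value. The replicate numbers link the samples by name only, with 2 pairs, yet same-numbered samples deviated together (correlation of deviations 0.855 across tested genes). With the number as a block, edgeR called 292 genes higher and 339 lower, against 0 and 0 without it. DESeq2 called 2 and 1, and 107 and 125 with the block, an alternative added after seeing the data. Leaving out 1 sample gave 2 to 45 higher and 1 to 20 lower calls, with 45 and 20 without Kap1 KD replicate 1, the spread then resting on the remaining samples. Trim28 was called with the block (log2 fold change -2.48), by DESeq2 (-2.47), by DESeq2 with the block (-2.48) and without each sample (-2.71 to -2.27). With the block 3 hepatocyte markers and 1 marker of other cell types (Col1a1, higher) were called. DESeq2 with the block called 2 hepatocyte markers, and edgeR called 0 to 1 when a sample was left out. In no alternative did another list have a call.

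The direction of the 4 genes was fixed by how they were chosen, and as they were chosen for large changes, their size was selected too. The alternatives use the same samples, so they show only how the size depends on the processing. With a prior count of 2 the log2 fold changes were 4.28 for Atp2b2, 3.92 for 9130204K15Rik, -1.996 for Cntnap4 and -1.68 for Eya2. Leaving out 1 sample gave 4.52 to 5.95, 4.38 to 5.66, -3.73 to -1.97 and -2.12 to -1.98. DESeq2 gave 4.95 for 9130204K15Rik, and with the block 4.98, and -2.79 for Cntnap4. The mean log2 change over same-numbered samples was 3.31, 3.20, -1.55 and -1.34 with 0.1 CPM added and 0.68, 0.63, -0.19 and -0.19 with 2 CPM, since a larger added value flattens genes of few reads. Without 1 sample some relatives changed sign: Atp2b1 ran from -0.48 to 0.53, Atp2a1 from -0.43 to 0.73, Atp2a2 from -0.16 to 0.020, Atp2c1 from -0.30 to 0.33, Nrxn2 from -0.24 to 0.35 and Six5 from -0.081 to 0.47. The cause was not tested.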
